A study of Mus musculus with 4 samples.

Results

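The genes described here encode subunits of the mitochondrial respiratory chain and of ATP synthase, together with assembly factors of complexes I and II that share their names. They were taken as every probe set with a single gene symbol beginning with Nduf, Uqcr, Sdha to Sdhd, Cox4 to Cox8 or Atp5. This gave 185 of 45037 probe sets, and 94 of 18193 genes when the probe set with the highest mean stood for its gene. Of these genes 34 belong to complex I, 4 to complex II, 8 to complex III, 19 to complex IV and 17 to complex V, and 12 are assembly factors. Ndufa4 and Ndufa4l2 were placed with complex IV, where the Ndufa4 protein is now known to sit. No level was used to choose the members and no low values were filtered out, and for 91 of the 94 genes the probe set was above the array median on every array.

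Total RNA of mouse 36-65 hybridoma cells was measured on Affymetrix expression arrays. A hybridoma is a fusion of an antibody-forming B cell with a myeloma cell. The high switching subclones, H23 (replicate 1) and H27 (replicate 2), changed the class of their antibody spontaneously and often in culture, and the low switching subclones, L25 (replicate 1) and L27 (replicate 2), did so at low frequency. All 4 were grown in the same medium with 10% fetal calf serum, and no treatment is given. Each subclone is 1 clone on 1 array, and nothing given says that the clones of a class arose separately, so a p-value here reflects the scatter among 4 subclones only. Values are intensities that the authors normalized with RMA, turned into log2. The number of arrays limits the precision, and the SE of a member's difference was between 0.10 and 0.24 at gene level.

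The median probe set had a log2 intensity of 5.25 to 5.30 on the 4 arrays. Markers of plasma cells were bright, from 8.43 to 14.49 over 6 genes. Among them Xbp1, which drives the secretory programme, had 12.45 and 12.71 in high and 13.33 and 13.24 in low switching subclones. It passed as lower (limma adjusted p = 0.0461), as did Tnfrsf17 (adjusted p = 0.0454). Prdm1 went the other way, with 11.82 and 12.06 in high and 10.91 and 11.48 in low switching subclones, without passing (adjusted p = 0.119). Irf4, Jchain and Sdc1 had differences of 0.03, 0.04 and 0.11. Of 3 B cell markers Cd79a and Pax5 were near the median probe set, and Ms4a1 (CD20) was bright, with 11.24 and 11.66 in high and 11.53 and 11.52 in low switching subclones. Markers of T cells (5.52 to 6.26), fibroblasts (3.71 to 5.91) and muscle (4.26 to 6.70, 4 genes each) stayed low, as did 2 erythroid markers (3.93 to 4.25). Of 4 myeloid markers (4.53 to 8.14) Itgam, an integrin, passed as lower, with 6.55 and 6.97 in high and 8.14 and 8.14 in low switching subclones (adjusted p = 0.0151). The part of these markers in the results below was not tested.

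The respiratory chain passes electrons from NADH and succinate to oxygen through complexes I to IV, pumping protons across the inner mitochondrial membrane at complexes I, III and IV. ATP synthase, complex V, uses the returning protons to make ATP. Most subunits are encoded in the nucleus and are assembled with a small core encoded in mitochondrial DNA, and antibody-secreting cells draw on this ATP for protein synthesis and folding.

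High were set against low switching subclones to ask which transcripts of the chain differ between them. Most differed little. Ndufa5, an accessory subunit of the peripheral arm of complex I, and Atp5md, a small membrane subunit of ATP synthase, were higher in high switching subclones, and Cox7a1, the heart and muscle isoform of a complex IV subunit, was lower. These 3 of 94 genes (3.19%) passed limma's test at an adjusted p under 0.05 over all probe sets, against 4.82% of all genes. In the higher direction 2 members passed, against 2.04% of all genes, and in the lower direction 1, against 2.78%. By probe set, 3 members were higher and 1 lower out of 185, against 3.59% of all probe sets. These shares are near the background.

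At an unadjusted p under 0.05 there were 25 member genes, against 22.9% of all genes. The median difference over the 94 genes was -0.04 (log2), against 0.01 over all genes, and 64 of the 94 differed by less than 0.25. A difference of 1.5-fold or more was found for 4 members (4.26%), against 8.55% of all genes.

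By complex, the median log2 difference was -0.02 for complex I, -0.11 for complex II, 0.08 for complex III, -0.0021 for complex IV, -0.05 for complex V and -0.18 for the assembly factors. Leaving out single arrays gave medians for complex II (4 genes) from -0.207 to -0.045. The median of the assembly factors was negative in all settings tried (-0.192 to -0.095), whereas those of all members and of complexes I, III, IV and V changed sign in at least 1 setting. Subunits lay on both sides of zero in every complex, with 39 positive and 43 negative differences, whereas 10 of 12 assembly factors were negative. Both high switching arrays lay above both low switching arrays for 22 members (23.4%) and below them for 39 (41.5%). Over all genes these shares were 26.5% and 24.9%. Among the 431 genes at least as bright as the median member, they were 30.9% and 29.9%. Members that lie close together on a chromosome are not independent points here.

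**Figure D1:**
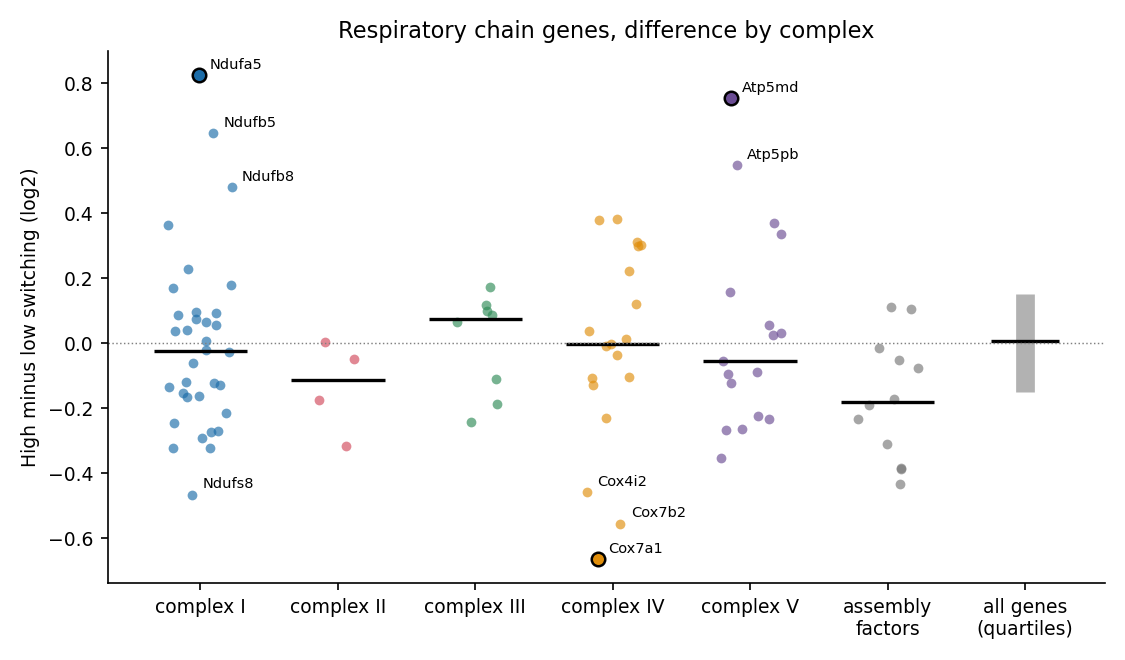
Each point is 1 gene, placed by its complex, and the vertical axis is its difference between high and low switching subclones (log2). Black bars are medians, points with a black rim passed limma's threshold, and the grey bar spans the quartiles of all 18193 genes. Ndufa5 (0.83) and Atp5md (0.75) lie at the top and Cox7a1 (-0.66) at the bottom, while the complexes centre near 0.

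Ndufa5 had log2 intensities of 12.15 and 12.08 in high switching replicates 1 and 2, against 11.30 and 11.28 in low switching replicates 1 and 2. The classes were separated by far more than the spread within either of them. The difference was 0.83 ± 0.11 (SE), a 1.77-fold higher level, with a limma adjusted p of 0.0194. Its other probe set gave 0.84 ± 0.11 (adjusted p = 0.0184). With the level of hybridization controls, which crosses the classes, as a block in the model, limma called neither Ndufa5 probe set, nor Atp5md, nor Cox7a1, and the adjusted p of Ndufa5 was 0.0941. Each level of the block held an array of either class, so the differences themselves did not change. The block also left fewer residual degrees of freedom, so these lost calls do not show that the control level made the differences.

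Atp5md read 11.88 and 12.02 in high switching subclones and 11.18 and 11.21 in low switching subclones, again without overlap. The difference of 0.75 ± 0.11 was 1.69-fold (adjusted p = 0.0267), measured by 1 probe set, and its adjusted p with the block was 0.102. Atp5md is also known as DAPIT, and in mammalian mitochondria it takes part in holding ATP synthase dimers together.

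Cox7a1 had 6.80 and 6.88 in high switching subclones, against 7.39 and 7.62 in low switching subclones, with every high switching value below every low switching one. The difference of -0.66 ± 0.12 makes it 1.58-fold lower, with an adjusted p of 0.0475, just inside the threshold. Its adjusted p was 0.134 with the block and 0.0656 with a variance trend in the model. Leaving out any of the 4 arrays ended all 3 calls in limma. The adjusted p then ran from 0.0616 (without high switching replicate 2) to 0.102 (without low switching replicate 1) for Ndufa5. It ran from 0.0697 (without high switching replicate 1) to 0.138 (without low switching replicate 1) for Atp5md and from 0.117 (without low switching replicate 1) to 0.170 (without low switching replicate 2) for Cox7a1. The differences themselves ran from 0.79 to 0.86 for Ndufa5, from 0.69 to 0.82 for Atp5md and from -0.78 to -0.55 for Cox7a1.

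The promoters of these genes are shown because many respiratory chain genes are known targets of the transcription factors NRF1 and GABP, and some of YY1. Sequences come from RefSeq (GRCm38.p6), on the strand of the gene, from 250 bases before to 10 after an annotated start. Capitals mark matches to the NRF1 motif (GCGCA and GCGC with any base between them) or the GABP motif (CCGGAAG) on either strand.
Ndufa5, chr6:24527681-24527940, minus strand: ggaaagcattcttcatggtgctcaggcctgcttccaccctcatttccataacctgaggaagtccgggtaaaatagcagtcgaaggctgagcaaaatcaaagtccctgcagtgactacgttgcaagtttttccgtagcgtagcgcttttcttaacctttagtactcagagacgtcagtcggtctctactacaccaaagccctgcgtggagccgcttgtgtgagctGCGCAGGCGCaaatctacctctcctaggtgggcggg
Atp5md, chr19:47090638-47090897, minus strand: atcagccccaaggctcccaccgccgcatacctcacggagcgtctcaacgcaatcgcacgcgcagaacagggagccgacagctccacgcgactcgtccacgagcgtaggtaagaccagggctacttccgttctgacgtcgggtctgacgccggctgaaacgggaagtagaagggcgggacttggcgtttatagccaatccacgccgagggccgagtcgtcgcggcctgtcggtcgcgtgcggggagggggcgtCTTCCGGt
Cox7a1, chr7:30183921-30184180, plus strand: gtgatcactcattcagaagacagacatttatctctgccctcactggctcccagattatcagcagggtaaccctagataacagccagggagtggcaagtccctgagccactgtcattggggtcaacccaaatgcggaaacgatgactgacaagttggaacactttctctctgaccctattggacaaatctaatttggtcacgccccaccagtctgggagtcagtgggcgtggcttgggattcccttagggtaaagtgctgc

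The Ndufa5 promoter holds the NRF1 letters 26 to 17 bases before this start, and a window for another annotated start of Ndufa5 overlaps it and holds the same match. The Atp5md window holds the GABP letters from base 3 to base 9 of the transcript, and the Cox7a1 window holds no match to either motif or to the YY1 motif (AAGATGGCG). Windows of 300 bases were found for 78 of the 94 genes (83 windows), and both strands were searched without merging overlapping motifs. The NRF1 motif was in 24.1% of member windows and 4.60% of all 32851 windows, the GABP motif in 26.5% and 8.86%, and the YY1 motif in 8.43% and 1.40%. A match describes the letters only. Genes with the NRF1 letters had differences on both sides of zero, among them Ndufa5 (0.83), Atp5g2 (0.34), Atp5g3 (-0.23) and Ndufaf4 (-0.39).

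In complex I, which takes electrons from NADH, Ndufa5 was the only gene past the threshold, and 16 of 34 genes had positive and 18 negative differences. The Ndufb subunits, which lie in the membrane arm, had a median of 0.09 over 11 genes, and in 6 of them both high switching arrays lay above both low switching arrays, while in 3 they lay below. Over all genes the shares were 26.5% above and 24.9% below. Ndufb5 had 11.97 and 12.27 in high switching subclones, against 11.32 and 11.62 in low switching subclones. The groups did not overlap, but subclones of the high class differed by 0.29 and those of the low class by 0.30, and the difference of 0.65 ± 0.16 had a limma adjusted p of 0.0934. Its other probe set gave 0.72 ± 0.17 (adjusted p = 0.0848). Ndufb8 had a difference of 0.48 ± 0.14 (adjusted p = 0.127) and Ndufb7 of 0.36 ± 0.10 (adjusted p = 0.134), with 0.44 on the other Ndufb7 probe set. Ndufb4 had 3.82 and 4.12 in high and 4.23 and 4.35 in low switching subclones, dimmer than the array median throughout, so its difference of -0.32 ± 0.14 may not follow the amount of transcript.

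The core subunits of complex I carry the flavin and the iron-sulfur clusters that conduct the electrons. They were grouped after their values had been seen, and 5 of 6 had negative differences, with a median of -0.22 and none past the threshold. Ndufs8, an iron-sulfur protein, read 12.63 and 12.68 in high switching subclones and 13.09 and 13.16 in low switching subclones. Its classes were clearly apart, and all 6 of its probe sets had negative differences, from -0.47 to -0.14. At gene level Ndufs8 had -0.47 ± 0.11 (adjusted p = 0.0785) and passed with a variance trend (adjusted p = 0.0265). Ndufv1, which binds NADH and the flavin, had -0.32 ± 0.11 (adjusted p = 0.179), with -0.33 to -0.29 over its 3 probe sets. Ndufv2 had -0.27 ± 0.14, Ndufs3 -0.16 ± 0.11 and Ndufs7 -0.12 ± 0.13. Ndufs1, the largest iron-sulfur subunit, had 11.54 and 11.54 in high against 11.56 and 11.50 in low switching subclones, a difference of 0.01 ± 0.10 with a 95% interval from -0.25 to 0.26. The brightest probe set of the complex belonged to Ndufa9, an accessory subunit of the peripheral arm, with 13.09 and 13.01 in high and 13.17 and 13.06 in low switching subclones, which overlapped.

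Complex II, succinate dehydrogenase, is also an enzyme of the tricarboxylic acid cycle. Sdhb, its iron-sulfur subunit, had 12.76 and 12.81 in high switching subclones and 13.09 and 13.11 in low switching subclones. These groups were tight and apart, yet the difference of -0.32 ± 0.10 did not pass (limma adjusted p = 0.178). Sdha, the flavoprotein that oxidizes succinate, read 11.63 and 11.35 in high and 11.54 and 11.79 in low switching subclones, so its classes overlapped (-0.18 ± 0.15). The membrane anchors Sdhc (0.01 ± 0.14) and Sdhd (-0.05 ± 0.11) had 95% intervals from -0.34 to 0.35 and from -0.30 to 0.21.

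Complex III hands electrons from ubiquinol to cytochrome c. All 8 genes lay between -0.24 (Uqcrh, the acidic hinge protein) and 0.17 (Uqcr10, a small membrane subunit), and none passed the threshold or an unadjusted p of 0.05 in limma. Uqcrc1, a large core subunit, had 12.73 and 12.59 in high and 12.49 and 12.59 in low switching subclones. Uqcrb, a small subunit, had 13.31 and 12.96 in high against 13.20 and 13.44 in low switching subclones, and its high switching arrays differed from each other by 0.36, more than the difference between the classes (-0.19 ± 0.16). Uqcr11 had a difference of 0.07 ± 0.11, and Uqcrfs1, the Rieske iron-sulfur protein, of -0.11 ± 0.11.

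Complex IV, cytochrome c oxidase, has several subunits with isoforms that are used in different tissues. The isoforms found in most tissues were bright, and several differed little. Cox6a1 had 14.43 and 14.39 in high and 14.35 and 14.48 in low switching subclones (-0.0021 ± 0.11). Cox7a2 had 14.32 and 14.30 in high and 14.32 and 14.37 in low switching subclones (-0.03 ± 0.10), and Cox6b1 had a difference of 0.01 ± 0.10. The classes overlapped in each of these. Cox4i1, the common form of the largest nuclear subunit, had 13.54 and 13.57 in high and 13.27 and 13.24 in low switching subclones. Its groups did not overlap, and the difference of 0.30 ± 0.10 did not pass (limma adjusted p = 0.195). Cox6c had 0.31 ± 0.11 (adjusted p = 0.191), and Ndufa4 had 12.75 and 12.51 in high against 12.23 and 12.26 in low switching subclones (0.38 ± 0.12, adjusted p = 0.172). Cox8a had -0.11 ± 0.11, and Cox7a2l, which takes part in joining complexes III and IV, had -0.23 ± 0.13 (adjusted p = 0.424).

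Isoforms known from particular tissues or from low oxygen had a median absolute difference of 0.34 over 8 genes, against 0.12 over the other 11 genes of the complex. The groups were formed after their values had been seen, and most of these isoforms were dim. Cox6a2, the heart and muscle isoform, was far above the array median, at 12.64 and 13.39 in high and 12.89 and 13.06 in low switching subclones. Its high switching replicates lay on either side of both low switching arrays and differed by 0.74, the widest gap within a class among the 94 genes. Its other probe set showed the same order, with 10.62 and 11.50 in high and 10.88 and 10.95 in low switching subclones. The 4 muscle markers were dim (4.26 to 6.70). Ckm (creatine kinase) had 6.39 and 6.38 in high against 6.70 and 6.58 in low switching subclones. Acta1 (skeletal actin) had 5.77 and 5.76 in high against 5.83 and 5.66 in low switching subclones. Myh7 had 4.41 and 4.50 in high against 4.53 and 4.26 in low, and Tnni3 5.13 and 4.95 in high against 4.64 and 5.23 in low. Any link of these markers to Cox6a2 was not tested. Cox7b2, known from testis, had 10.01 and 10.18 in high and 10.67 and 10.62 in low switching subclones, without overlap. The difference was -0.55 ± 0.11 with an adjusted p of 0.0603, and it passed when only probe sets with a mean of at least 6 were tested (adjusted p = 0.0458).

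The remaining isoforms were dimmer. Cox4i2, the lung isoform, had 6.09 and 6.59 in high and 6.64 and 6.95 in low switching subclones (-0.46 ± 0.20, adjusted p = 0.294). Cox8c had a difference of 0.22 ± 0.15, and Ndufa4l2, a paralogue induced by low oxygen, had 0.30 ± 0.11 (adjusted p = 0.205). Cox6b2 and Cox8b were near or below the array median, with differences of 0.38 ± 0.11 (adjusted p = 0.143) and -0.10 ± 0.13. Cox7c, a subunit of most tissues, was represented only by dim probe sets, the brighter with 6.40 and 6.38 in high and 6.36 and 6.67 in low switching subclones.

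**Figure D2:**
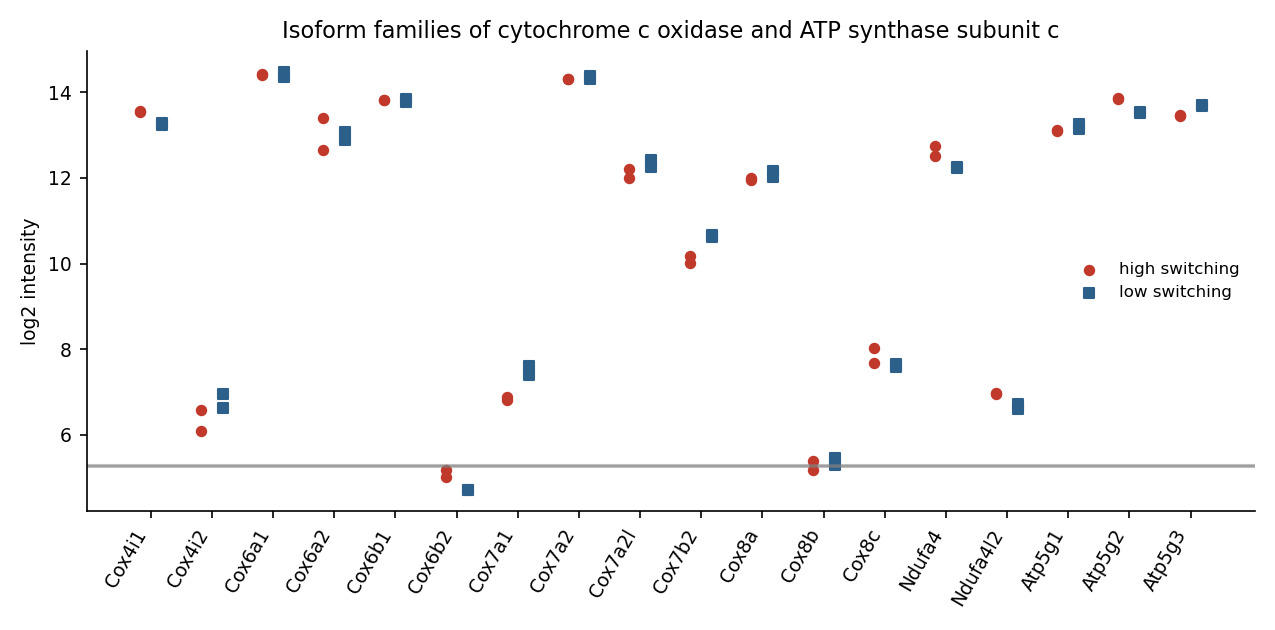
Log2 intensity (vertical axis) of the isoform families on each array, with high switching subclones as red circles left of low switching subclones as blue squares. The grey band is the range of the array medians. Cox6a2 is spread from 12.64 to 13.39 within the high switching class, and Cox7a1 and Cox7b2 are lower in both high switching arrays; levels of different probe sets are not comparable as amounts of transcript.

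In complex V, Atp5md was the only gene past the threshold, with 8 positive and 9 negative differences among 17 genes. The beta, gamma and delta subunits differed little. Atp5b, the catalytic beta subunit, had 14.05 and 13.95 in high and 13.93 and 14.01 in low switching subclones, a difference of 0.03 ± 0.11 with a 95% interval from -0.24 to 0.29. Atp5c1 (gamma) and Atp5d (delta) had -0.09 ± 0.11 and 0.03 ± 0.10. Atp5a1 (alpha) had -0.12 ± 0.10, with -0.25 to -0.12 over its 3 probe sets. Atp5e (epsilon) had -0.22 ± 0.12 (limma adjusted p = 0.422), with both high switching arrays below both low switching arrays. Subunits of the stalk and membrane part went both ways. Atp5pb, the b subunit of the peripheral stalk, had 13.09 and 13.28 in high and 12.56 and 12.71 in low switching subclones (0.55 ± 0.12, limma adjusted p = 0.0767), with 0.52 on its other probe set. It passed with a variance trend (adjusted p = 0.0336). Atp5mpl, a small proteolipid of the membrane part, had 0.37 ± 0.11 (adjusted p = 0.135). In the other direction, Atp5j, a coupling factor of the stalk, had 12.23 and 12.20 in high against 12.60 and 12.53 in low switching subclones (-0.35 ± 0.11, adjusted p = 0.145). Atp5o, the oligomycin sensitivity subunit, had 12.88 and 12.91 in high against 13.13 and 13.19 in low switching subclones (-0.27 ± 0.10, adjusted p = 0.248).

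Subunit c, which forms the rotating ring, is encoded by Atp5g1, Atp5g2 and Atp5g3, whose products differ in the import sequence that is cut off and give the same mature protein. Atp5g2 had 13.84 and 13.87 in high and 13.51 and 13.53 in low switching subclones. Atp5g3 had 13.47 and 13.44 in high against 13.69 and 13.68 in low switching subclones, and Atp5g1 13.10 and 13.12 in high against 13.26 and 13.13 in low switching subclones. Thus Atp5g2 was above, and Atp5g3 below, both low switching arrays in each high switching array. Atp5g1 lay below them too, but hardly so (13.12 against 13.13). The differences of Atp5g2, Atp5g3 and Atp5g1 were 0.34 ± 0.10 (limma adjusted p = 0.156), -0.23 ± 0.10 (adjusted p = 0.308) and -0.09 ± 0.11 (adjusted p = 0.770). None passed, except Atp5g2 with a variance trend (adjusted p = 0.0388).

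**Figure D3:**
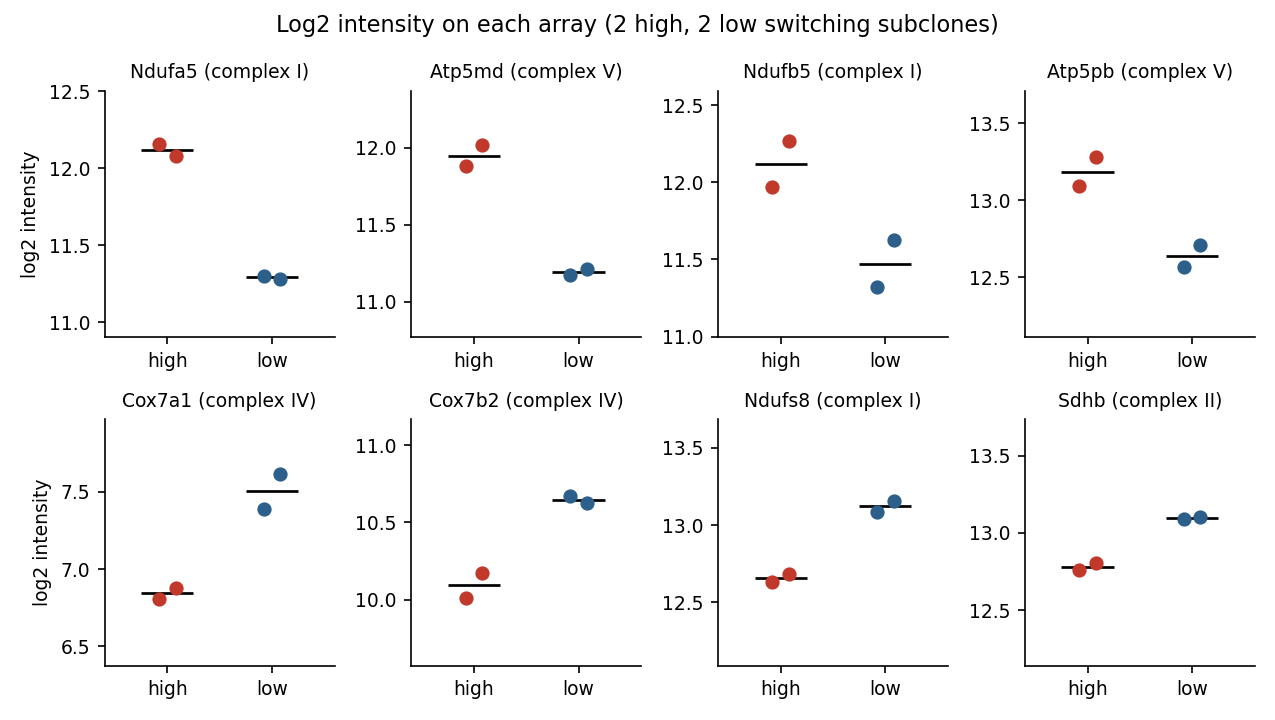
Log2 intensity (vertical axis) of 8 genes on each array, high switching subclones in red left of low switching subclones in blue. Bars are at the means. All panels have a span of the same size, each centred on the mean of its gene. Limma called only Ndufa5, Atp5md and Cox7a1 of the genes shown.

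Of the 12 assembly factors, which build complexes I and II without being part of them, limma called 0, against 4.82% of all genes. At an unadjusted p under 0.05 there were 3, against 22.9% of all genes, which is near the background. In 7 of the 12 factors both high switching arrays lay below both low switching arrays, and in 0 above, against 24.9% and 26.5% of all genes. Sdhaf1, needed to insert iron-sulfur clusters into Sdhb, had 9.64 and 9.74 in high and 10.22 and 10.02 in low switching subclones (-0.43 ± 0.12, limma adjusted p = 0.126). Both Sdhaf1 and Sdhb had non-overlapping, lower values in high switching subclones, neither past the threshold. A link between these genes was not tested. Ndufaf4 had 10.89 and 11.32 in high and 11.59 and 11.40 in low switching subclones, close to overlap (-0.39 ± 0.17, adjusted p = 0.300), and -0.38 on its other probe set. Leaving out single arrays gave differences from -0.60 (without high switching replicate 2) to -0.17 (without high switching replicate 1). Ndufaf7, a methyltransferase acting on a complex I subunit, had -0.38 ± 0.12 (adjusted p = 0.172). The positive values were those of Ndufaf2 (0.11 ± 0.15) and Ndufaf6 (0.11 ± 0.12), both with overlapping classes. Ndufaf8 had 11.32 and 11.23 in high against 11.53 and 11.48 in low switching subclones.

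Genes that serve the chain but whose symbols fall outside the rule were taken from 14 lists of 216 genes, of which limma called 3 higher and 11 lower (6.48%), against 4.82% of all genes (2.04% higher and 2.78% lower). The assembly factors of complexes III, IV and V held 4 of the 14 genes called over all lists, and these 4 fell in high switching subclones. Ttc19, which clears fragments of the Rieske protein from complex III, had 8.40 and 8.47 in high and 10.26 and 10.30 in low switching subclones, a difference of -1.84 ± 0.11 (3.58-fold lower, limma adjusted p = 0.00149). This was larger than any difference among the 94 members. Uqcc1, another complex III factor, had -0.59 ± 0.11 (adjusted p = 0.0424), Coa7, of complex IV, -0.75 ± 0.12 (adjusted p = 0.0306), and Atpaf1, which chaperones the beta subunit of ATP synthase, -0.79 ± 0.13 (adjusted p = 0.0332). The counts were 2 lower of 6 for complex III, 1 of 20 for complex IV and 1 of 2 for complex V, with 0 higher. The median difference was -0.47 for complex III factors, 0.05 for complex IV factors and -0.54 for complex V factors. Both high switching arrays lay above both low switching arrays in 2, 9 and 0 of these, and below them in 4, 5 and 2. Over all genes the shares were 26.5% above and 24.9% below. Of 8 further complex I factors limma called 0, with 5 at an unadjusted p under 0.05, against 22.9% of all genes. The median of these 8 factors was -0.01, with 3 above and 3 below. Cytochrome c itself (Cycs) had 13.12 and 13.02 in high against 12.71 and 12.56 in low switching subclones (0.43 ± 0.11, adjusted p = 0.110), and Cyc1, the cytochrome subunit of complex III, 0.10 ± 0.11. Among 10 nuclear regulators of these genes limma called 0 (1 at an unadjusted p under 0.05), with Nrf1 at 0.25 ± 0.14 and Gabpa at -0.06 ± 0.11.

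The differences of the members went along with those of the genes around them on the chromosome. For each gene, the median difference was taken over 20 genes on each side whose mean was 7 or more. Across the 94 members, Pearson's r between a gene's difference and this median was 0.70 and Spearman's rho 0.63. The signs were the same for 71 members (75.5%). The points share the same 4 arrays and, where genes lie close, the same neighbours. Across the 8205 genes with a mean of 7 or more, r was 0.47 and rho 0.55, and the signs were the same for 73.1%. Within complex V r was 0.94 (17 genes), within complex I 0.81 (34 genes), within complex IV 0.49 (19 genes), and among the assembly factors 0.02 (12 genes).

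Several cases shared a chromosome. Chromosome 3, where the bright genes just described had a median of 0.37, held 3 members (Atp5pb, Ndufb5 and Ndufc1), all positive. On chromosome 16, with a median of -0.27, all 3 members (Atp5j, Atp5o and Ndufb4) were negative, and on chromosome 5, with -0.31, all 4 were negative, Cox7b2 among them. All members were also positive on chromosomes 8 (3 members, median of the bright genes 0.24), 12 (3, 0.13), 15 (4, 0.10) and X (2, 0.10). Both members on chromosome 18 were negative (-0.20). On the remaining chromosomes that held members, both signs occurred. Chromosome 7, with -0.18, held 5 positive and 5 negative members. Chromosomes 10 and 11, both with -0.05, had 4 of 6 and 3 of 5 members positive. Chromosome 19 also held members of both signs. Atp5md and Ndufb8 had neighbours with medians of 0.48 and 0.45, and Ndufs8 and Ndufv1 had neighbours at -0.31 and -0.28. With the neighbours' median subtracted, 0.28 was left of the difference of Atp5md, 0.18 of Atp5pb, 0.24 of Ndufb5 and 0.03 of Ndufb8. Ndufa5 kept 0.54, with neighbours at 0.28, and Cox7a1 kept -0.65, with neighbours at -0.01. The standard deviation of the 94 differences was 0.27, and it was 0.19 after the subtraction.

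**Figure D4:**
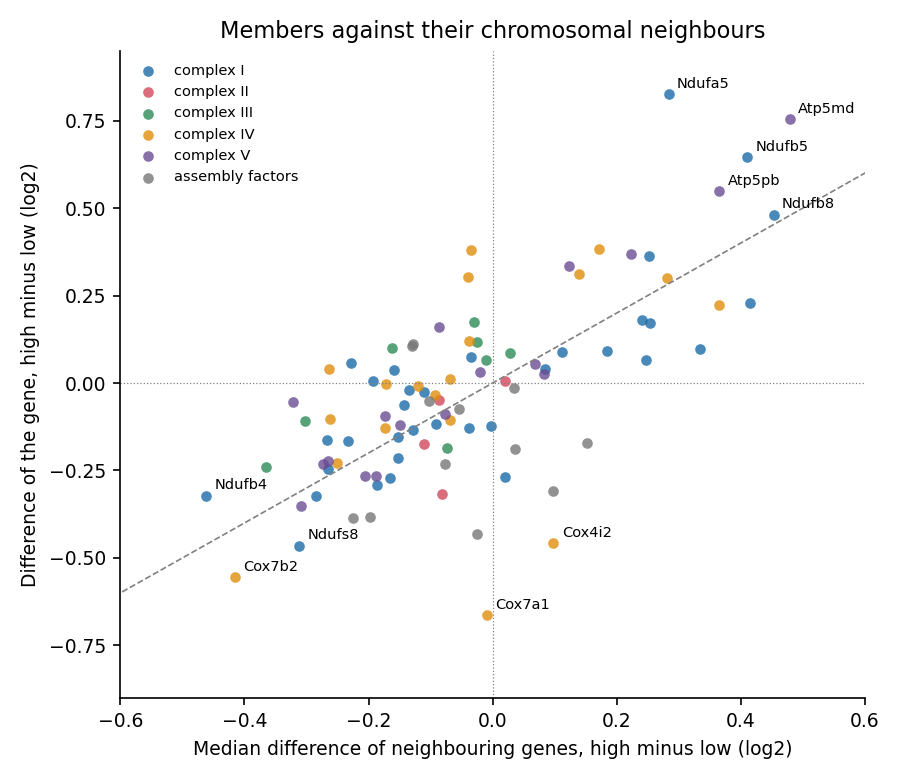
Each point is 1 of the 94 genes, coloured by complex. The horizontal axis is the median difference of its neighbours on the chromosome and the vertical axis its own difference, both high minus low switching in log2; the dashed line marks equal values. Genes of complex V follow the line, while Ndufa5 (0.83) lies above it and Cox7a1 (-0.66) and Cox4i2 (-0.46) below it.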

How the data were processed

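The deposited values are array intensities on a linear scale that the authors made with RMA, per the submitters' processing notes, which name no version. RMA can understate differences of dim probe sets. They were turned into log2, and 64 control probe sets were left out. Gene symbols come from the platform annotation of 2016 (1 symbol for 34945 probe sets, several for 932, none for 9160). A further 10 probe sets with several symbols, a member family's among them, were tested and not used as members. High minus low switching was tested on all 45037 probe sets in R 4.3.3 with lmFit and eBayes of limma 3.58.1, two-sided, with Benjamini-Hochberg adjustment and a threshold of 0.05. Intervals are at 95%. With 2 arrays in each class the smallest exact two-sided permutation p is 0.333, so the calls lean on limma's pooling of variances between probe sets.

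Genes were named by these rules: members past the threshold, the largest positive and negative differences and the brightest and dimmest gene of each complex, complex II, the isoform families, and up to 4 called genes of each list. Cox6c, Cox7c, Ndufb7, Ndufc1, Uqcrc1, Uqcrfs1, Atp5b, Atp5c1, Atp5d, Atp5e, Atp5a1, Atp5mpl, Ndufaf7, Cycs, Cyc1, Nrf1, Gabpa and core subunits of complex I were chosen after their values were seen where no rule names them. Members and lists were chosen with earlier results of these data known, so no list was tested. Gene order and promoters come from RefSeq (GRCm38.p6); no build is named for the arrays. The 18 hybridization control probe sets averaged 11.23 (log2) on H27 and 10.79 on H23, against 11.32 on L25 and 10.72 on L27, and this level was tried as a block. Alternatives were normalization, variance model, filters, gene summary, subtraction of the neighbours' median and leaving out each array. The steps were tested on simulated data. Figures used matplotlib 3.10.9.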

Additional observations from a re-analysis of the deposited data

How the results depend on the processing

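The calls among the members depended on having all 4 arrays and on the variance model. Without any single array, limma called between 0 and 0 member probe sets and genes in either direction, with 21 to 32 member probe sets at an unadjusted p under 0.05; the lone array of a class was then assumed to vary like the other class. With the hybridization controls' level as a block it called 0 (40 at an unadjusted p under 0.05). Over the whole table it called 58 higher and 94 lower with that block, and between 112 and 253 higher and between 196 and 329 lower without single arrays, against 674 and 944. A variance trend gave 6 higher and 2 lower member probe sets and 4 higher genes, and 3 of the 4 probe sets called before were among them. A minimum mean of 6 gave 2 lower probe sets and 2 lower genes, and averaging the probe sets of a gene also gave 2 lower genes.

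Several median differences moved by more than the spread between arrays in these settings. Cyclic loess gave -0.017 for all members, -0.139 for assembly factors, 0.096 for complex III and -0.035 for complex V. Quantile normalization gave -0.133 for assembly factors and 0.061 for complex III. Subtracting the neighbours' median gave 0.028 for all members, -0.159 for assembly factors, 0.134 for complex III, 0.080 for complex IV and 0.042 for complex V. Without probe sets ending in _x_at, _s_at or _a_at, which may match several transcripts, the medians were -0.095 for assembly factors, -0.071 for complex I, -0.034 for complex III and 0.040 for complex V. Averaging a gene's probe sets gave 0.018 for complex V. Without single arrays the medians ran from -0.063 to 0.023 for complex I, from -0.0011 to 0.074 for complex III and from -0.077 to -0.020 for complex V. The median of complex II (-0.112 with all arrays) then ran from -0.207 to -0.045, which stays within its spread between arrays (0.098). The causes were not tested.

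Small differences changed sign without single arrays. They ran from -0.024 to 0.075 for Atp5b, from -0.069 to 0.064 for Cox6a1, from -0.33 to 0.41 for Cox6a2, from -0.016 to 0.041 for Cox6b1, from -0.067 to 0.280 for Ndufaf2 and from -0.12 to 0.13 for Sdhc. Of the values of single genes under all settings, 419 kept their direction and side of the threshold, 17 lost a call, 6 gained one and 10 changed sign. No paired analysis was possible because the classes share fewer than 2 numbers in the subclone names (H27 and L27 share a number, H23 and L25 do not), nothing says that a shared number marks a pair, and replicate numbers were given in accession order.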

Other observations

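Transcripts of mitochondrial translation, which makes the subunits encoded in mitochondrial DNA, were measured too. Of 76 genes of the mitochondrial ribosome limma called 2 higher and 5 lower in high switching subclones, against 2.04% and 2.78% of all genes, with a median difference of -0.17 (log2). Among them Mrps35 had 11.62 and 11.61 in high and 12.96 and 12.70 in low switching subclones (-1.22 ± 0.13, limma adjusted p = 0.0123), Mrps28 had 0.92 ± 0.11 (adjusted p = 0.0155), Mrpl37 -0.79 ± 0.11 (adjusted p = 0.0255) and Mrpl4 0.78 ± 0.11 (adjusted p = 0.0218). Both high switching arrays lay below both low switching arrays for 40 of these genes and above them for 17, against 24.9% and 26.5% of all genes.

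Elsewhere in the organelle, Pdha1, a subunit of pyruvate dehydrogenase, fell (-0.70 ± 0.12, limma adjusted p = 0.0411), as did Mterf1a, a factor of mitochondrial transcription (-0.64 ± 0.10, adjusted p = 0.0332), and Chchd6, which shapes the cristae, rose (0.94 ± 0.13, adjusted p = 0.0229). Each was the only gene called in its list, of 11, 14 and 15 genes in this order. Limma called 0 of 13 tricarboxylic acid cycle genes (4 at an unadjusted p under 0.05) and 0 of 12 of coenzyme Q synthesis (3). It also called 0 of 20 of protein import (6) and 0 of 6 carriers (1). Over all genes 4.82% were called and 22.9% had an unadjusted p under 0.05 in limma.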
